A study of Homo sapiens with 11 samples.

Results

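Metallothioneins and the genes of the cellular zinc response were described across 11 treatment conditions of HEK293T cells, an established human embryonic kidney cell line of wild-type genotype. The set holds 7 genes, chosen by name from the 38021 genes of the expected count table: the metallothioneins MT1E, MT1F, MT1G, MT1X and MT2A, the zinc-sensing transcription factor MTF1, and the zinc exporter SLC30A1 (also called ZnT1). MT1E was near 0 throughout, and the other 6 genes had counts and passed the filter on low counts that left 17793 genes for testing. The cells were grown in plates and treated for 6 h, and total RNA was sequenced on a DNBSEQ platform. The control received vehicle alone (0.1% DMSO). Thapsigargin (Tg, spelled Thapsigargain in the labels), which stops calcium uptake into the endoplasmic reticulum (ER), was given at 500 nM. The compound AA147 was given at 10 µM, and the compound AA132 at 0.1, 0.3, 1, 3, 6, 10, 15 or 30 µM. The series concerns how such regulators of ER protein homeostasis activate single arms of the unfolded protein response. Each condition has 3 numbered libraries, and the labels do not say whether these came from separate cultures, so the p-values measure only the spread between these libraries, which may be technical.

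Metallothioneins are small, cysteine-rich proteins that bind zinc and copper. When free zinc in the cell rises, MTF1 binds it, enters the nucleus and binds metal response elements (MREs) in the promoters of metallothionein genes and of SLC30A1. The metallothionein proteins then hold the metal, and SLC30A1 at the plasma membrane pumps zinc out of the cell. MTF1 itself is controlled mainly through its zinc binding and location. Metallothionein genes also respond to oxidants and to glucocorticoids.

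The promoters of the 4 members found in the RefSeq promoter table are shown because they hold the sequence that MTF1 recognises. They are printed for the 250 bases before the annotated start, 5′ to 3′ on the gene's own strand, in the RefSeq build GRCh38.p14. Capitals mark each match to the MRE core, searched as TGCACNC or TGCGCNC on both strands, so a match on the opposite strand reads as GNGTGCA or GNGCGCA. The MT2A window is chr16:56608334-56608583 (plus strand), the MT1X window chr16:56682220-56682469 (plus strand), the SLC30A1 window chr1:211579162-211579411 (minus strand) and the MTF1 window chr1:37859593-37859842 (minus strand).
MT2A: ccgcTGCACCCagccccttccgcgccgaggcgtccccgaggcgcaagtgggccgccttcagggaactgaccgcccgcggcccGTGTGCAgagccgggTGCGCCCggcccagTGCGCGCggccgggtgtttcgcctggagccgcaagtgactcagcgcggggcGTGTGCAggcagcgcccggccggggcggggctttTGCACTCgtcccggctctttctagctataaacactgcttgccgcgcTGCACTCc
MT1X: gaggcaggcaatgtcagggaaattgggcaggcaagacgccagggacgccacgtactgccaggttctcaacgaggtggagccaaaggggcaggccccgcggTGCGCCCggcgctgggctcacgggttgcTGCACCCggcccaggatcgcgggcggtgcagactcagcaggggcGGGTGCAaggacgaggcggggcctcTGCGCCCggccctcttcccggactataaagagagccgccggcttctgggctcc
SLC30A1: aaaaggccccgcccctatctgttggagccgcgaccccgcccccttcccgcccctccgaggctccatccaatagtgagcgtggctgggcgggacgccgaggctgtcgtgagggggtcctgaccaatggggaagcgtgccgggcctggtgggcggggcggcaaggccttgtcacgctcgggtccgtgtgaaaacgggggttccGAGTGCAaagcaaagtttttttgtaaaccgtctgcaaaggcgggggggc
MTF1: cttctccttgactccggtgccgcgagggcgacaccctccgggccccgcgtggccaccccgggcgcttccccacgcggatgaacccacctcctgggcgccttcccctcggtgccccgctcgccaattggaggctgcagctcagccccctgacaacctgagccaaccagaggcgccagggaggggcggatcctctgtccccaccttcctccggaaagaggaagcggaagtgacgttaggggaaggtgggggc

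The MT2A promoter held 7 matches to the MRE core and the MT1X promoter 4. The SLC30A1 promoter held 1 match, 43 to 49 bases before the start, and the MTF1 promoter held none in this window. Of 35116 promoters of the same length in the table, 24.8% held at least 1 match, 0.37% held at least 4 and 0.0313% held at least 7. The core of the antioxidant response element (ARE), searched as TGACNNNGC on both strands, occurred once each upstream of MT2A, MT1X and SLC30A1, and in 10.9% of all promoters. The AP-1 motif TGACTCA, bound by Jun and Fos proteins, occurred once upstream of MT2A, where it overlapped the ARE match, and in 4.2% of all promoters. A match describes the letters only and is no measurement of binding.

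**Figure D1:**
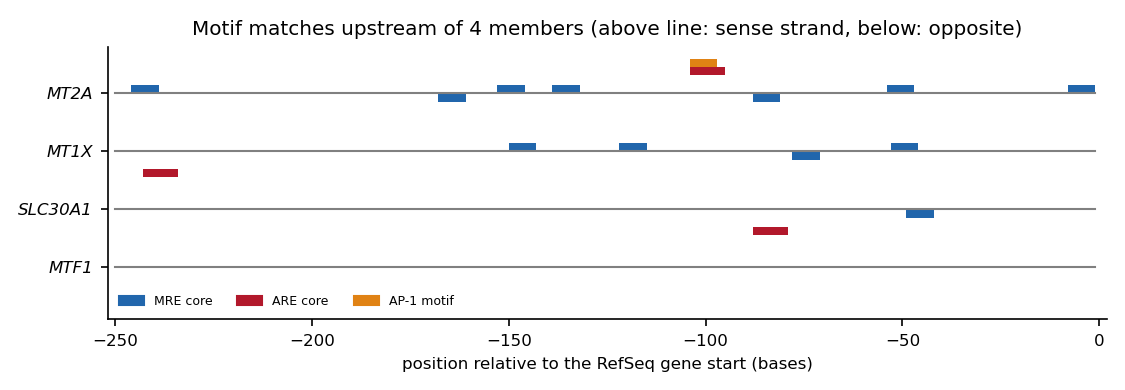
Positions of motif matches in the 250 bases before the RefSeq start of 4 members, in bases from the start (x axis), with the strand of the gene above each line and the opposite strand below. The 7 MRE matches of MT2A spread over the whole window, the 4 of MT1X lie within 150 bases of the start, SLC30A1 has 1 and MTF1 none.

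The 5 metallothionein members lie within a cluster on chromosome 16 (GRCh38, GENCODE 44), where 9 annotated metallothionein genes span 75.61 kb. MT2A (56608584 to 56609497, plus strand) opens this span and MT1X (56682470 to 56684196, plus strand) closes it, with 72.97 kb between the end of the first and the start of the second. MT1E (56625475 to 56627112, plus strand), MT1F (56657731 to 56660698, plus strand) and MT1G (56666730 to 56668065, minus strand) lie between them. SLC30A1 (211571568 to 211579161) and MTF1 (37809574 to 37859592) are both on the minus strand of chromosome 1. The metallothionein transcripts are short, with 401 bases in 3 exons for MT2A and 404 bases in 3 exons for MT1X, while SLC30A1 has 5893 bases in 2 exons and MTF1 7937 bases in 11 exons. Of all stretches of 50 bases in each transcript, 18.03% in MT1X, 19.94% in MT1G, 10.33% in MT1E, 6.117% in MT1F and 4.545% in MT2A also occurred in the transcript of another metallothionein. How reads from such stretches were assigned is not given in the sources used here, so part of the counts could belong to a paralogue. The size of this part is not known. It could be large for MT1G, which had a median of 10 counts per library against 434 for MT1X and 638 for MT2A.

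Library totals ran from 32.27 to 37.96 M counts. Of the HEK293T markers, PAX8 was at or near 0 in all libraries, and PAX2 was low at 0.407 to 1.53 CPM (counts scaled to library size). LHX1, NEFM, NEFL and INA were present, and all 6 markers summed to between 130.7 and 159.8 CPM. Markers of blood, red cells, liver, keratinocytes and islets summed to 0 to 0.2913 CPM. In all 33 pairs of libraries of one condition the counts differed beyond counting error, with a chi-square per degree of freedom of 4.672 to 64.5. Vehicle library 1 stood apart from the other vehicle libraries (64.5 and 49.9, against 7.936 between libraries 2 and 3), as did library 1 of AA147 and of AA132 10 µM from theirs. In vehicle library 1, transcripts under 1000 bases lay 0.29 above the mean of vehicle libraries 2 and 3 (median, log2) and those over 5000 bases 0.34 below it. The difference of these medians, 0.628, was the largest of the 33 libraries, followed in the positive direction by library 3 of AA132 30 µM at 0.236. Vehicle library 1 stood at 1.39 times the mean CPM of vehicle libraries 2 and 3 for MT2A and 1.35 times for MT1X. For SLC30A1 it stood at 0.773 times and for MTF1 at 0.658 times. MT1F, also a short transcript, was nearly level at 1.05 times, and MT1G stood at 2.05 times, both with few counts. Results against vehicle are therefore given with all libraries and, where it matters, without vehicle library 1.

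Per transcript length, MT2A was the most abundant member in vehicle at 38.25 ± 7.69 CPM per kb (SD, n = 3), and MT1X followed at 25.5 ± 4.73. SLC30A1 stood at 3.58 ± 0.515 CPM per kb, MT1F at 1.96 ± 0.0564 and MTF1 at 1.78 ± 0.4. MT1G reached 0.712 ± 0.418 CPM per kb. MT2A and MT1X thus accounted for nearly all metallothionein RNA in these cells. MT1E had 0 counts in 31 of 33 libraries and 1 count in each of the other two. The other metallothioneins looked up, MT1A, MT1B, MT1H, MT1M, MT3, MT4 and MT1HL1, were also too low to test, with 0 of 7 passing the filter. MT3, known from brain, peaked at 8 counts in vehicle library 1, and MT1H, MT1M and MT4 had 0 counts.

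MT2A, the most widely expressed human metallothionein, was lowest under Tg and highest under the higher AA132 doses. Its level was 18.9, 13.52 and 13.6 CPM in vehicle libraries 1 to 3, and 13.17, 10.48 and 9.8 CPM in the Tg libraries. All Tg libraries lay below all vehicle libraries, with means of 11.15 ± 1.78 and 15.34 ± 3.08 CPM (SD, n = 3). MT2A fell by 0.46 on the log2 scale (SE 0.13, edgeR adjusted p = 0.00627) and was the 1 of 6 tested members called in this comparison, in which 31.2% of all genes were called and 15% were called lower. Without vehicle library 1, the value was -0.29 (edgeR adjusted p = 0.0934) and the call was lost. In bulk RNA, fewer cells of a kind and less RNA per cell cannot be told apart.

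Under AA132 the MT2A level was near that of vehicle at low doses. The mean was 15.53 ± 1.56 CPM with the 0.1 µM dose and 15.87 ± 1.67 with 0.3 µM (SD, n = 3). It was 17.08 ± 2.2 CPM with 1 µM, 16.36 ± 1.01 with 3 µM and 17.2 ± 0.161 with 6 µM. At 10 µM the libraries read 19.17, 16.71 and 21 CPM, at 15 µM 21.35, 19.47 and 19.57, and at 30 µM 17.93, 20.78 and 21.2. The 15 µM libraries all lay above the vehicle libraries, whereas at 10 and 30 µM the lowest library lay below vehicle library 1. Against all 3 vehicle libraries, the log2 differences at 10, 15 and 30 µM were 0.31, 0.39 and 0.38, with edgeR adjusted p-values of 0.279, 0.0886 and 0.0608, so none passed. Without vehicle library 1, MT2A was called higher at all of these doses, by 0.48 (edgeR adjusted p = 0.0264), 0.57 (0.00645) and 0.56 (0.00319). With the column number as a block, the 30 µM difference of 0.39 also passed (edgeR adjusted p = 0.0334).

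**Figure D2:**
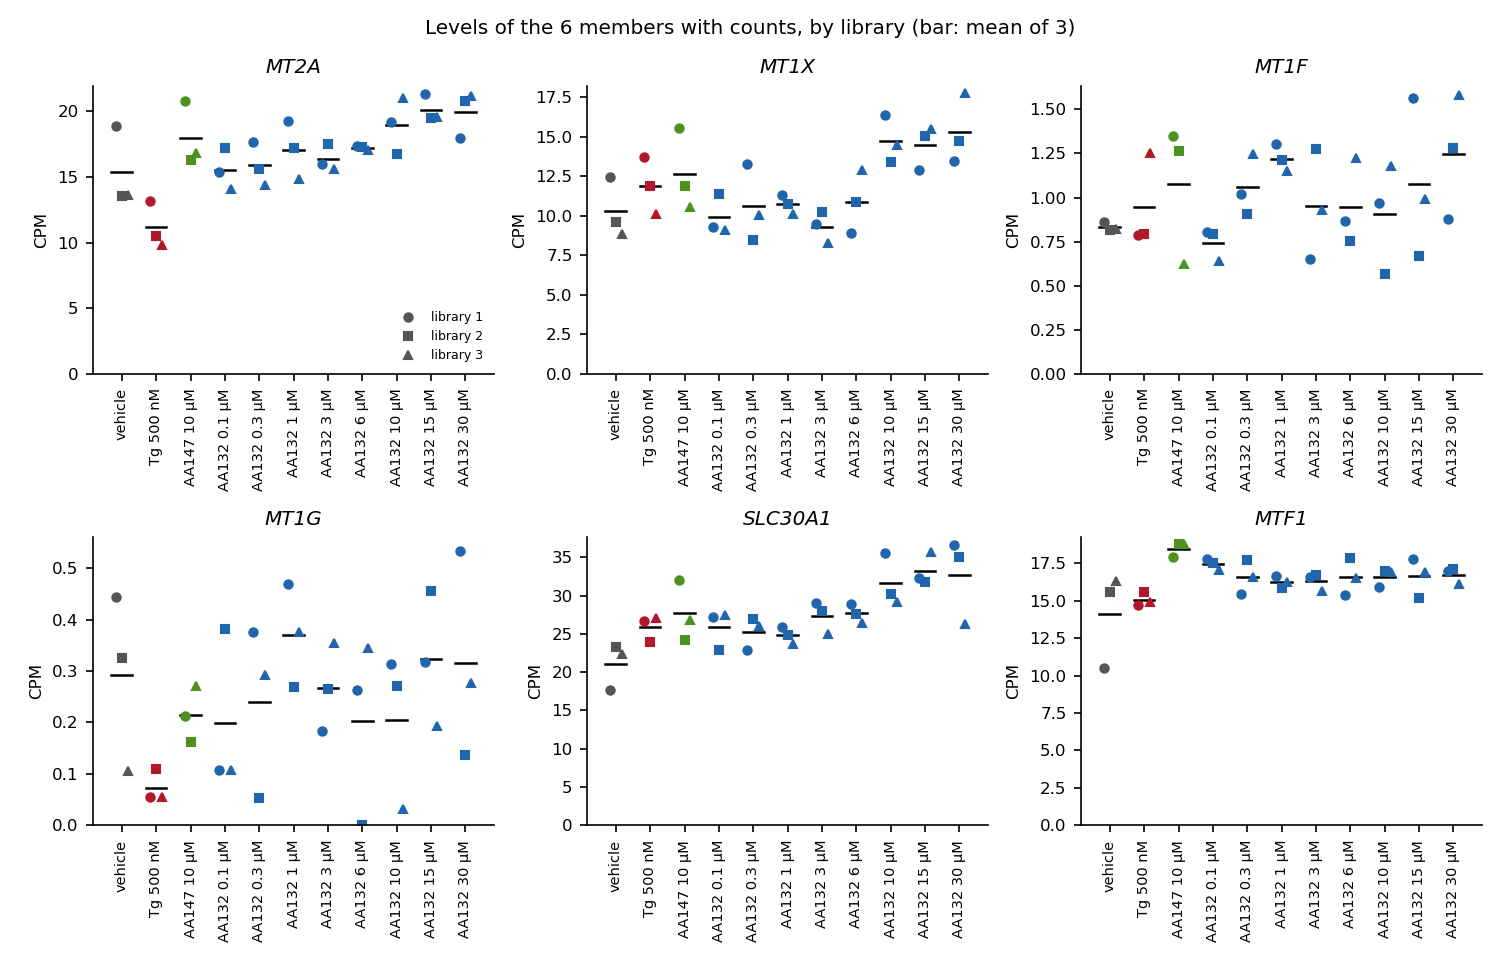
CPM (y axis, linear from 0) of the 6 members with counts in each library of the 11 conditions (x axis), with marker shapes for library number and a bar at the mean of 3. MT2A is lowest under Tg (9.8 to 13.17 CPM), MT1X and SLC30A1 are highest at 10, 15 and 30 µM AA132, and MTF1 stays between 14.75 and 18.82 CPM in all libraries except vehicle library 1 (10.5 CPM).

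MT1X, another metallothionein of the common MT1 group, was raised at the top AA132 dose. Vehicle libraries read 12.47, 9.58 and 8.86 CPM, against 13.45, 14.73 and 17.73 CPM at 30 µM. All 30 µM libraries lay above all vehicle libraries, and the means were 15.31 ± 2.2 and 10.3 ± 1.91 CPM (SD, n = 3). MT1X rose by 0.57 on the log2 scale (SE 0.16, edgeR adjusted p = 0.0249), or 1.49-fold. MT1X was highest, and SLC30A1 lowest, in library 3, the library of this dose with the excess of short transcripts. The MT1X call was lost without library 3 (0.45, edgeR adjusted p = 0.135), without library 2 (0.6, 0.0537), without vehicle library 2 (0.52, 0.0788) and without vehicle library 3 (0.47, 0.114). Without vehicle library 1 it was larger, at 0.73 (edgeR adjusted p = 0.00413).

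At 10 µM AA132, MT1X read 16.37, 13.39 and 14.49 CPM, and at 15 µM 12.87, 15.02 and 15.47 CPM. These libraries also lay above all vehicle libraries, yet the differences of 0.52 and 0.49 missed the threshold (edgeR adjusted p = 0.109 and 0.0983). Both passed without vehicle library 1, at 0.68 (edgeR adjusted p = 0.0202) and 0.65 (0.0256). From 0.1 to 6 µM the MT1X means ranged from 9.31 to 10.88 CPM, close to the vehicle mean. Under Tg the libraries read 13.74, 11.85 and 10.13 CPM, which overlapped vehicle, and the difference of 0.21 did not pass (edgeR adjusted p = 0.356).

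The proportion of MT1X to MT2A was also read within each library. The ratio of MT1X to MT2A counts within a library was 1.043, 1.13 and 1.033 in the Tg libraries, and 0.66, 0.709 and 0.651 in the vehicle libraries. Across the 30 libraries outside Tg it ranged from 0.514 to 0.854, so that only in the 3 Tg libraries did MT1X counts exceed MT2A counts. The log2 ratio was 0.67 higher under Tg than in vehicle, with an exact two-sided permutation p of 0.1, the smallest that 3 against 3 libraries can give. This test was not planned beforehand and reuses the MT1X and MT2A counts described above. Vehicle library 1 lay between the other vehicle libraries in this ratio, which compares transcripts of nearly the same length. The highest mean ratio outside Tg belonged to AA132 10 µM (0.782 ± 0.0837, SD, n = 3) and the lowest mean to AA132 3 µM (0.569 ± 0.0339). The summed CPM of MT1F, MT1G, MT1X and MT2A was 26.76 ± 5.13 in vehicle, 24.07 ± 3.34 under Tg, 31.92 ± 5.26 under AA147, 35.98 ± 0.318 at 15 µM AA132 and 36.84 ± 4 at 30 µM (SD, n = 3).

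**Figure D3:**
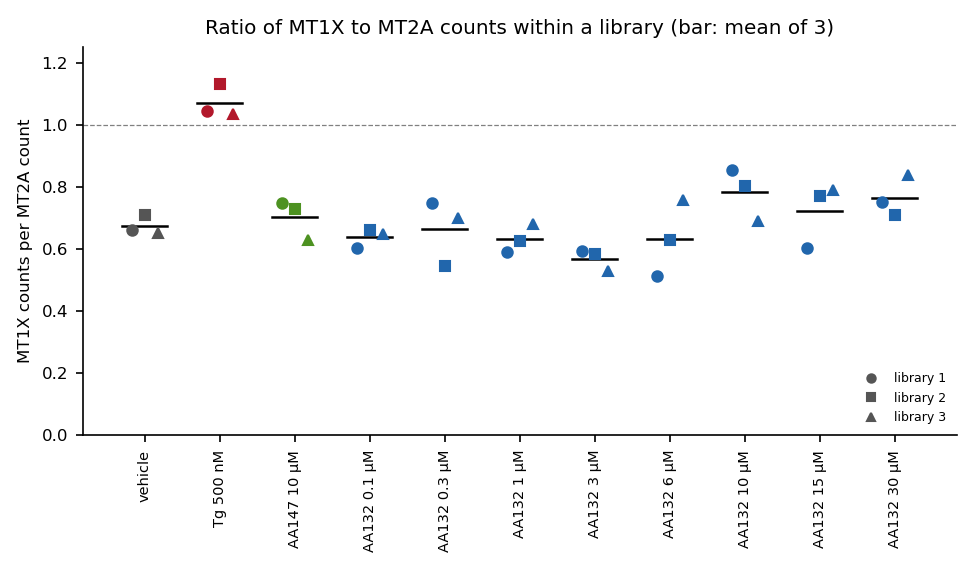
Ratio of MT1X to MT2A counts (y axis, linear from 0) within each of 33 libraries, by condition, with a bar at the mean of 3 and a dashed line at equal counts. The 3 Tg libraries lie at 1.033 to 1.13, above the line, and the other 30 lie at 0.514 to 0.854, below it.

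SLC30A1, the plasma membrane exporter and a direct MTF1 target, was the member with most calls against vehicle. Its level was 17.65, 23.34 and 22.32 CPM in the vehicle libraries, 35.61, 30.16 and 29.17 CPM at 10 µM AA132, 32.26, 31.73 and 35.67 CPM at 15 µM, and 36.66, 35 and 26.3 CPM at 30 µM. Every library at these doses exceeded every vehicle library. At 10, 15 and 30 µM, SLC30A1 rose by 0.59, 0.65 and 0.63 on the log2 scale (SE 0.12 each, edgeR adjusted p = 0.00318, 0.000612 and 0.000661), which is 1.5-, 1.57- and 1.55-fold. It was the 1 of 6 tested members called at 10 µM, where 1.41% of all genes were called, and at 15 µM, where 2.76% were. At 30 µM, SLC30A1 and MT1X made 2 of 6, against 7.05% of all genes. Without vehicle library 1 the SLC30A1 values were 0.47 (edgeR adjusted p = 0.0183), 0.54 (0.00522) and 0.52 (0.00322), and all kept the call. In that fit MT2A, MT1X and SLC30A1 made 3 of 6 called members at each of these doses, with 3.6%, 3.51% and 11.1% of all genes called, and under Tg 0 of 6 were called, with 28.4% of all genes.

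Below 10 µM, SLC30A1 means ran from 24.8 ± 1.17 CPM at 1 µM to 27.68 ± 1.23 CPM at 6 µM (SD, n = 3). The 3 and 6 µM libraries all lay above vehicle, by 0.38 and 0.39 on the log2 scale, but did not pass (edgeR adjusted p = 0.286 and 0.103). No member was called at 0.1, 0.3, 1, 3 or 6 µM, where 0%, 0%, 0%, 0.118% and 1.07% of all genes were. At 0.1, 0.3 and 1 µM edgeR called 0 genes. Of the 17793 tested, 796, 981 and 1057 had an unadjusted p under 0.05, a limit that some unchanged genes pass by chance. Under Tg, SLC30A1 read 26.72, 23.94 and 27.04 CPM, all above vehicle. That difference of 0.3 narrowly missed the threshold (SE 0.12, edgeR adjusted p = 0.0516), and it was 0.18 (0.289) without vehicle library 1. It passed without vehicle library 2 (0.36, edgeR adjusted p = 0.0322), without Tg library 2 (0.046), with no filter (0.0325) and by DESeq2 (0.0445).

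**Figure D4:**
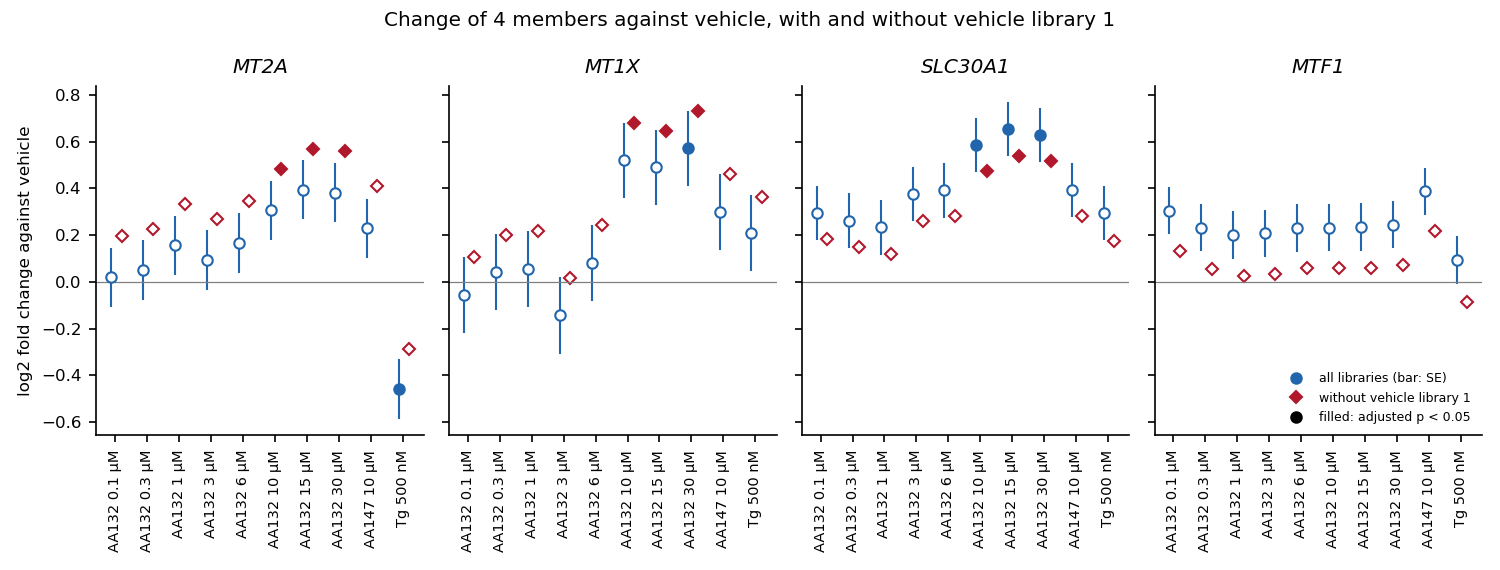
Log2 fold change against vehicle (y axis) of MT2A, MT1X, SLC30A1 and MTF1 in the 10 treatments (x axis), with all libraries (circles, bar SE) and without vehicle library 1 (diamonds), filled where the edgeR adjusted p was under 0.05. Without vehicle library 1 the MT2A and MT1X values move up, with 10, 15 and 30 µM AA132 filled for both, while the SLC30A1 and MTF1 values move down.

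MTF1, the transcription factor that senses zinc, was called in no comparison with all libraries. The treated means ran from 15.08 ± 0.442 CPM under Tg to 18.5 ± 0.521 CPM under AA147 (SD, n = 3). Vehicle libraries read 10.5, 15.58 and 16.33 CPM, so library 1 was far below the other two. AA147 libraries, at 17.9, 18.82 and 18.78 CPM, lay above all vehicle libraries, but the difference of 0.39 did not pass (SE 0.1, edgeR adjusted p = 0.251), and it was 0.22 (0.362) without vehicle library 1. At 30 µM AA132 the MTF1 difference was 0.24 (edgeR adjusted p = 0.152), with 0.07 (0.666) without that library and 0.36 without vehicle library 3, where it passed (0.0389).

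MT1F, a minor MT1 gene, had 21 to 59 counts per library. Its vehicle level was 0.859, 0.814 and 0.822 CPM, and its mean ranged from 0.744 CPM at 0.1 µM AA132 to 1.247 CPM at 30 µM. At 30 µM the libraries read 0.879, 1.28 and 1.58 CPM, all above vehicle, with a difference of 0.58 that did not pass (SE 0.32, edgeR adjusted p = 0.31). MT1G, which is abundant in normal kidney and thyroid, had 0 to 20 counts per library. It had 16, 12 and 4 counts in vehicle and 2, 4 and 2 under Tg, the lowest mean of any condition, and the libraries overlapped at 4 counts. The Tg difference did not pass (edgeR adjusted p = 0.0765), and at so few counts no fold change is given. MT1G was called lower under Tg by DESeq2 (adjusted p = 0.0482), and by edgeR with no filter on low counts (0.0322) and without vehicle library 3 (0.0378).

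Over the 8 AA132 doses, the members were tested for a slope of their level on log10 dose across 24 libraries, a fit that holds no vehicle library. MT1X rose by 0.26 on the log2 scale per 10-fold dose (SE 0.054, edgeR adjusted p = 0.000774), SLC30A1 by 0.17 (SE 0.033, 0.000357) and MT2A by 0.15 (SE 0.032, 0.000671). These were 3 of 6 tested members, against 18.7% of the 17554 genes tested for the slope and 9.83% called higher. The slopes of MTF1 (-0.01, SE 0.023, edgeR adjusted p = 0.732), MT1F (0.13, SE 0.099, 0.417) and MT1G (0.13, SE 0.21, 0.74) did not pass. Without the 30 µM dose the 3 slopes were 0.22 for MT1X (edgeR adjusted p = 0.0142), 0.16 for SLC30A1 (0.00191) and 0.15 for MT2A (0.00713). The median slope of the 6 tested members was 0.14, and that of all genes 0.0014.

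AA147 at 10 µM called 0 of the 6 tested members, with 0.0225% of all genes called by edgeR and 1211 at an unadjusted p under 0.05. SLC30A1 read 32.12, 24.23 and 26.81 CPM, all above vehicle, with a difference of 0.39 (SE 0.12, edgeR adjusted p = 0.395). MT2A read 20.81, 16.27 and 16.81 CPM and MT1X 15.57, 11.86 and 10.57 CPM, and both overlapped vehicle. Library 1 was the highest AA147 library for MT2A, MT1X and SLC30A1. Set directly against AA147 at the same dose, AA132 at 10 µM also called 0 of 6 members, with 0.0674% of all genes called and 1425 at an unadjusted p under 0.05. The difference of AA132 from AA147 was 0.19 for SLC30A1 (95% interval -0.04 to 0.43, edgeR adjusted p = 0.713), 0.22 for MT1X (-0.10 to 0.54, 0.772) and 0.08 for MT2A (-0.18 to 0.33, 0.941). For MTF1 it was -0.16 (-0.36 to 0.05, 0.746), and all 3 AA132 libraries lay below the AA147 libraries. Thus no member was shown to differ between the compounds at this dose, and the intervals leave room for differences of either sign.

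A comparison of AA132 at 30 µM with Tg, added after the data were seen, has no vehicle library in either group. Vehicle libraries still enter the filter, the scaling and the estimate of the spread in the shared fit. It called 2 of the 6 tested members higher, against 29.8% of all genes called and 14.3% called higher. MT2A was 0.84 higher on the log2 scale under AA132 (SE 0.13, edgeR adjusted p = 4.52e-06), with 17.93 to 21.2 CPM against 9.8 to 13.17 CPM and no overlap. SLC30A1 was 0.33 higher (SE 0.11, edgeR adjusted p = 0.0255), although its libraries overlapped, since library 3 of AA132 30 µM lay below library 1 and library 3 of Tg. That call was lost without library 1 or 2 of AA132 30 µM (edgeR adjusted p = 0.162 and 0.105) or library 2 of Tg (0.116). MT1X (0.36, edgeR adjusted p = 0.0853), MT1F (0.4, 0.371) and MTF1 (0.15, 0.278) did not pass. MT1G, with 20, 5 and 10 counts under AA132 and 2, 4 and 2 under Tg, did not overlap and narrowly missed the threshold (edgeR adjusted p = 0.0572). It was called by DESeq2 (adjusted p = 0.0348), and by edgeR with no filter (0.0203), without library 2 of AA132 30 µM (0.0356) and without the 3 libraries that stand apart (0.0452).

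The other transporters that set cellular zinc were read from lists by family. Of 10 SLC30A exporters, which move zinc out of the cytosol to the outside or into organelles, 9 were tested. Under Tg, 4 of 9 rose and 0 fell, beside 31.2% of all genes called and 16.2% called higher, and the median was 0.36 against 0.0048 over all genes. SLC30A7 and the partners SLC30A5 and SLC30A6, which load zinc into the early secretory pathway, rose by 0.83 (edgeR adjusted p = 1.11e-05), 0.62 (3.04e-08) and 0.6 (6.09e-05). SLC30A5 read 101.4, 124.6 and 126.2 CPM in vehicle and 181.3, 187.7 and 173.6 CPM under Tg. SLC30A7 read 10.06, 16.61 and 17.1 CPM in vehicle and 27.1, 25.96 and 25 CPM under Tg. For all of these the Tg libraries lay above all vehicle libraries, and the calls were kept without vehicle library 1, at 0.62 for SLC30A7, 0.52 for SLC30A5 and 0.4 for SLC30A6 (edgeR adjusted p = 8.93e-05, 2.32e-07 and 0.00037).

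At 30 µM AA132, SLC30A1 and SLC30A6 were the 2 of 9 tested exporters that rose, beside 7.05% of all genes called and 3.86% called higher. The SLC30A6 difference of 0.42 (edgeR adjusted p = 0.0167) was 0.22 without vehicle library 1 (0.0847), and its call was lost there, as it was without library 1 or 2 of AA132 30 µM. Over the AA132 doses, 6 of 9 exporters had a rising slope and 9 of 9 slopes were above 0, with a median of 0.13, beside 18.7% of all genes called for the slope and 9.83% called higher. Beside SLC30A1 these were SLC30A2, SLC30A3, SLC30A5, SLC30A6 and SLC30A10, named after their values were seen. SLC30A10, which exports mainly manganese, went from 0.788 ± 0.13 CPM at 0.1 µM to 1.48 ± 0.228 CPM at 30 µM (SD, n = 3), with a slope of 0.36. Without the 30 µM dose the slopes of SLC30A2, SLC30A5 and SLC30A6 no longer passed (edgeR adjusted p = 0.097, 0.0502 and 0.122).

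Of 14 SLC39A importers, which bring zinc into the cytosol, 12 were tested. Under Tg, 3 of 12 rose and 2 fell, beside 16.2% of all genes called higher and 15% called lower. At 6, 10, 15 and 30 µM AA132, 1 of 12 was called, beside 1.07%, 1.41%, 2.76% and 7.05% of all genes. SLC39A14 (ZIP14), a zinc and iron importer, rose most under Tg, by 1.54 (SE 0.099, edgeR adjusted p = 2.56e-14), or 2.91-fold. It read 31.56, 42.75 and 43.27 CPM in vehicle, 115.4, 120.2 and 106.3 CPM under Tg, and 63.8, 64.05 and 55.58 CPM at 30 µM AA132, with no overlap between these groups. It was also the single importer called under AA132, with 6, 10, 15 and 30 µM giving 0.55, 0.59, 0.69 and 0.64 (edgeR adjusted p = 0.00122, 0.000415, 2.8e-05 and 6.19e-05), and it was called without vehicle library 1 as well. SLC39A7, which releases zinc from the ER, rose under Tg by 0.82 (edgeR adjusted p = 1.42e-11), from 198 to 350.7 mean CPM, and had 0.16 at 30 µM AA132, which did not pass. SLC39A9 rose by 0.29 under Tg (edgeR adjusted p = 0.0245), a call lost without vehicle library 1 (0.12, 0.305). The 2 importers called lower under Tg were SLC39A1 and SLC39A10, named after their values were seen. SLC39A10, which MTF1 is known to repress, read 30.57, 67.28 and 63.74 CPM in vehicle and 38.18, 38.98 and 36.33 CPM under Tg, so vehicle library 1 lay below the Tg libraries. Its Tg call (-0.51, edgeR adjusted p = 0.0179) was lost without vehicle library 2 (0.139), vehicle library 3 (0.122) or Tg library 3 (0.051). Without vehicle library 1 the SLC39A10 fall was larger, at -0.80 (edgeR adjusted p = 1.76e-06). The SLC39A1 call (-0.24) was lost without vehicle library 1 (edgeR adjusted p = 0.0811), vehicle library 3 (0.0563) or Tg library 3 (0.0541). Over the AA132 doses SLC39A10 fell by 0.19 per 10-fold dose (SE 0.035, edgeR adjusted p = 0.000165), from 59.2 ± 4.08 CPM at 0.1 µM to 39.74 ± 7.7 CPM at 30 µM (SD, n = 3), while SLC39A14 rose by 0.24 (SE 0.026, 3.57e-08). These were the 2 called among 11 importers tested for the slope, a share near the 18.7% of all genes. Under AA147, 0 of 9 exporters and 0 of 12 importers were called.

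**Figure D5:**
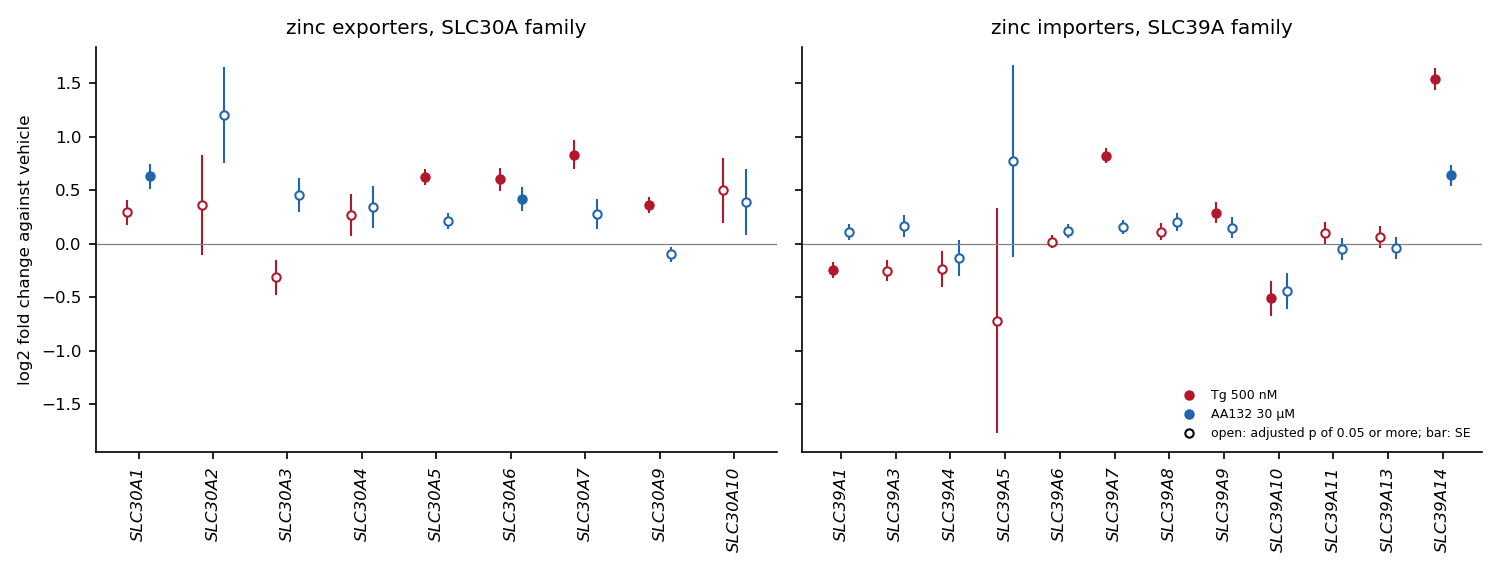
Log2 fold change against vehicle (y axis, bar SE) of the tested SLC30A exporters (left) and SLC39A importers (right) under Tg (red) and 30 µM AA132 (blue), open where the edgeR adjusted p was 0.05 or more. Under Tg, SLC39A14 reaches 1.54 and SLC30A7 and SLC39A7 exceed 0.8, while SLC30A1 is filled for AA132 only.

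Other genes tied to the same regulators were read from short lists, set beside the 31.2% of all genes called under Tg and the 7.05% called at 30 µM AA132. Of 4 further reported MTF1 targets, GCLC, the catalytic subunit of glutathione synthesis and also an NRF2 target, rose under Tg by 0.58 (edgeR adjusted p = 6.56e-07) and at 30 µM AA132 by 0.49 (0.000129), while SLC39A10 and SLC40A1 fell under Tg. GCLC was also called at 6, 10 and 15 µM AA132, but at 6 and 10 µM not without vehicle library 1 (edgeR adjusted p = 0.0914 and 0.137). These 6 and 10 µM calls of GCLC were also lost without any 1 of the 6 µM libraries (edgeR adjusted p = 0.109, 0.0843 and 0.0753) and without library 2 or 3 of 10 µM (0.0871 and 0.194). The SLC40A1 call was lost without vehicle library 2 or 3 (edgeR adjusted p = 0.114 and 0.124) or Tg library 1 or 2 (0.0898 and 0.0819). It was kept without vehicle library 1, at -0.48 (edgeR adjusted p = 0.000281). Of 9 copper handling genes, 1 rose (SLC31A1, the copper importer, by 0.35) and 3 fell under Tg, where 15% of all genes fell (SOD1 by 0.27, ATP7B by 0.2 and ATOX1 by 0.41), where the calls of SLC31A1, SOD1 and ATOX1 were lost without vehicle library 1 (edgeR adjusted p = 0.123, 0.0504 and 0.657). At 30 µM AA132, 1 of the 9 rose (SLC31A2, by 0.58, edgeR adjusted p = 0.0454), and it no longer passed without library 1 or 3 of that dose (0.153 each) or vehicle library 2 or 3 (0.13 and 0.0684). The ATP7B call under Tg was lost without vehicle library 2 (edgeR adjusted p = 0.102) or Tg library 1 or 2 (0.0563 and 0.0562). It was kept without vehicle library 1, at -0.26 (edgeR adjusted p = 0.00467). Of 6 glucocorticoid receptor targets, TSC22D3 and KLF9 rose under Tg, by 0.96 and 0.65, and SGK1 fell by 0.42. At 30 µM AA132, 0 of these 6 were called by edgeR. On the AA132 dose slope, 2 of these 6 and 1 of the 9 copper handling genes were called lower, and 0 higher. Of the 4 further MTF1 targets, 1 was called higher and 1 lower. Over all genes tested for the slope, 9.83% were called higher and 8.89% lower.

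Ordered by mean level, vehicle, 0.1, 0.3, 3, 1 and 6 µM AA132 and AA147 followed each other for MT2A with gaps smaller than the larger SD of each neighbouring pair, and so did the steps on to 10, 30 and 15 µM AA132. The gap from Tg, the lowest, up to vehicle was 4.19 CPM and exceeded the larger SD of 3.08. For MT1X, every neighbouring gap from 3 µM AA132 (9.31 CPM) to 30 µM (15.31 CPM) was smaller than the larger SD. For SLC30A1 the gap from vehicle up to the next condition, 1 µM AA132, was 3.69 CPM and exceeded the larger SD of 3.03, and the other gaps did not. For MTF1 the gaps beyond the larger SD were 1.17 CPM from Tg up to 1 µM AA132 (larger SD 0.442), 0.7 CPM from 30 µM up to 0.1 µM AA132 (0.532) and 1.04 CPM from 0.1 µM up to AA147 (0.521). Over the 11 condition means of log2 CPM, Pearson's r was 0.78 between MT1X and SLC30A1, 0.63 between MT2A and SLC30A1 and 0.51 between MT1X and MT2A. Among 14010 other genes, the profile most like that of MT2A was MLLT11 (r = 0.99, n = 11 conditions), followed by IFNAR1 (0.984) and ABHD3 (0.982). The profile of MT1X was most like RDH11 (0.962), that of SLC30A1 most like FEM1C and FBXO30 (both 0.934) and that of MTF1 most like FAM102B (0.889). These points share libraries and the vehicle control, and the correlations are descriptions.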

How the data were processed

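The authors deposited 1 table of expected counts per gene for 33 libraries of HEK293T cells, with 0.009 in place of 0 and 3.22% of cells fractional. The genome build was GRCh38.p7 per the submitters' processing notes, while aligner, counter, gene annotation and strand handling are not given in the sources used here. Values were rounded, and 98 rows that share a name were summed, giving 38021 genes. Rows named as dates (28) were kept but not named. In R 4.3.3, edgeR 4.0.16 was fitted to all 11 conditions at once, with TMM (trimmed mean of M values) factors, its filter on low counts (17793 genes) and no replicate block. The quasi-likelihood F-test was adjusted by Benjamini-Hochberg over all genes tested, and genes were called at an adjusted p under 0.05. Printed adjusted p-values are those of edgeR, other tools being named. CPM values are TMM-scaled, and 95% intervals use the degrees of freedom of the test. The dose slope was fitted on the 24 AA132 libraries. The treatments share the 3 vehicle libraries. The labels number no replicates; the columns do, and deviations of columns with the same number did not go together (165 pairs, median r 0.000614, range -0.147 to 0.183, 2 above 0.1), so the numbers were not taken to pair libraries.

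The members and gene lists were chosen with earlier results of these data known. The lists (other metallothioneins, zinc exporters, zinc importers, further MTF1 targets, copper handling, glucocorticoid receptor targets) were written from general knowledge. Of each, at most 3 called genes that rose most and 3 that fell most were named per comparison if the mean reached 1 CPM and the libraries did not overlap. ATOX1 and SLC40A1, the slope genes, SLC39A1 and SLC39A10 fall outside this rule and were named after their values were seen. Likeness of profiles used genes with a mean of at least 1 CPM. Promoters came from RefSeq (4 of 7 members matched), transcript lengths from GENCODE 44 (82.4% of tested genes had one). The test was tested on simulated data. Alternatives were DESeq2 1.42.0, upper-quartile factors, no filter, a replicate block, a fold limit, a fit of the compared conditions only and leaving out libraries.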

Additional observations from a re-analysis of the deposited data

Results flagged for a closer look

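MT2A differed between AA132 at 30 µM and Tg, a comparison added after the data were seen. It was flagged because its differences from the shared vehicle had opposite signs and the direct difference passed at an adjusted p under 0.05. The p-value printed here is therefore part of the rule that chose MT2A. Against vehicle, the 30 µM difference did not pass, and the Tg call was lost without vehicle library 1. MT2A was 0.84 higher on the log2 scale under AA132 than under Tg (SE 0.13, edgeR adjusted p = 4.52e-06), and 3 of 3 AA132 libraries lay above all Tg libraries. Without the 3 libraries that stand apart the difference was 0.85 (edgeR adjusted p = 4.96e-08). MT2A stood at 19.97 ± 1.78 CPM under AA132 and 11.15 ± 1.78 CPM under Tg (SD, n = 3).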

How the results depend on the processing

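For the dose slope, MT1X, MT2A and SLC30A1 were called in all 30 alternative fits. Of these fits, 24 left out 1 library at a time and gave 3 to 3 called members. The slope fit without the 3 libraries that stand apart repeats 1 of these 24. Only library 1 of AA132 10 µM is among the libraries of the slope. The fold limit and the fit of the compared conditions alone were not applied to the slope. Its steadiness therefore cannot be set against that of the other comparisons. The number of called members against vehicle moved with the processing, and no named member changed sign among its called values. At 10 µM AA132 (1 called) DESeq2 and the fit with no filter on low counts gave 2 and the fit without the 3 libraries that stand apart gave 3. At 15 µM (1 called) these 3 fits gave 3, 3 and 3. At 30 µM (2 called) DESeq2, no filter, the block and the fit without the 3 libraries gave 3, with MT2A added. Under Tg (1 called) DESeq2 and no filter gave 3, and the fit without the 3 libraries gave 0. No filter gave 1 at 3 µM, at 6 µM and under AA147, where 0 were called, and DESeq2 gave 1 at 6 µM. For AA132 30 µM against Tg (2 called), no filter and the fit without the 3 libraries gave 4. A log2 fold change of at least 1 gave 0 in all 5 of these comparisons with calls. This limit was set on the main fit, where the largest called member change was 0.84, so its outcome was fixed. A fit of the compared conditions alone, with fewer libraries to estimate the spread, gave 0 at 10, 15 and 30 µM and under Tg. For AA132 30 µM against Tg, also with fewer libraries, such a fit lost no member call and added MT1X (0.38, edgeR adjusted p = 0.0298). It called 37.6% of all genes there, and 0.449% at 30 µM against vehicle. Why these fits differ was not tested. Leaving out 1 library at a time gave 1 to 3 called members at 10, 15 and 30 µM AA132 and for AA132 30 µM against Tg, 0 to 2 under Tg, and 0 to 0 elsewhere. Causes were not tested beyond this. The column number as a replicate block changed 1 call among the members, MT2A at 30 µM AA132 (0.39, edgeR adjusted p = 0.0334). Without the 3 libraries that stand apart, 32.3% of genes were called under Tg, 15.1% at 30 µM and 7.73% at 10 µM AA132. Depth was lowest for MT1G (0 to 20 counts) and MT1F (21 to 59 counts).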
